A study of Homo sapiens with 10 samples.

Results

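Keratin genes were examined in a map of nucleosome positions from human induced pluripotent stem cells (hiPSCs). They were taken by symbol, as autosomal protein-coding genes named KRT plus a number with at most 1 further letter, which leaves out the keratin-associated KRTAP genes. Of 19111 autosomal protein-coding genes in the annotation, 55 met the rule, 27 on chromosome 12 and 28 on chromosome 17. KRT8, KRT18 and KRT19 were compared with the other 52.

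Keratins are the intermediate filament proteins of epithelial cells. A filament forms from a type I (acidic) and a type II (basic) keratin, and the genes of each type lie in a cluster of their own, type II on chromosome 12 and type I on chromosome 17. KRT18 is the exception, a type I gene at the edge of the type II cluster next to its partner KRT8. KRT8 and KRT18 are the pair of simple epithelia and of the early embryo, and they are also made by pluripotent stem cells. KRT19 is a type I keratin of ducts and other simple epithelia. Most other members belong to stratified epithelia such as epidermis, where KRT5 and KRT14 mark basal cells and KRT1 and KRT10 the layers above, or to the hair shaft and its sheaths.

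The cells were of 1 hiPSC line, PB010.5, which carries a cell cycle (FUCCI) reporter. Permeabilized cells were digested with micrococcal nuclease (MNase), which cuts the linker DNA between nucleosomes, in amounts of 10, 6, 3, 1 or 0.5 U. Each of the 5 digestions gave 1 library, all 5 contained mononucleosomal yeast DNA as a spike-in, and each was sequenced with 150-bp and with 50-bp reads, which makes 10 samples. The data analysed were 1 pooled list of 12921589 nucleosome positions. The list held no value per MNase concentration or per library, so no comparison between concentrations could be made, no replicate error could be given and no significance test was run. Differences were set against the spread over genes or over autosomes, which is not a replicate error. The study's methods say that nucleosome profiling of the 50-bp runs did not complete and that these were taken no further, but they do not name the runs pooled for this list. A list of positions has no expression values against which the cell type could be checked.

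Each position is an interval of 140 bp with a score, a signal height whose scaling the authors did not state. Scores came in steps of 1.23, the median of the list was 14.8 and its quartiles were 9.87 and 19.7. The reads behind a score are not known, so no counting interval is given. Distances below run from the start of a gene's canonical transcript to the midpoint of a position and are negative upstream. Midpoints lay largely on a grid, with 94.4% sharing the same last digit, so distances are resolved to about 10 bp. All coordinates are on GRCh38.

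The 55 keratin starts had 888 distinct positions within 1500 bp. The median keratin gene had 16 positions in this window, as did the median of all genes, and the mean score per gene had a median of 18.9, against 18.8 over all genes. Around the start itself narrower gaps and more covered starts were counted than over all genes. The gap across the start, from the nearest upstream to the nearest downstream midpoint, which widens where a promoter is depleted of nucleosomes, had a median of 180 bp at keratin genes and 225 bp over all 18765 genes with a position on each side. A gap of at least 300 bp was found at 28% of all genes but at 5 of 55 keratin genes, and no midpoint lay in the 200 bp upstream of the start at 24.4% of all genes but at 6 of 55 keratin genes. When positions below the median score of the list were dropped, such a gap was found at 63.4% of all genes, at 17 of the other 52 keratin genes and at 1 of KRT8, KRT18 and KRT19. With all positions, the start lay inside a called position at 51.6% of all genes and at 39 of 55 keratin genes. Most keratin starts are poor in CpG, and the values over CpG-poor genes alone are given below.

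**Figure D1:**
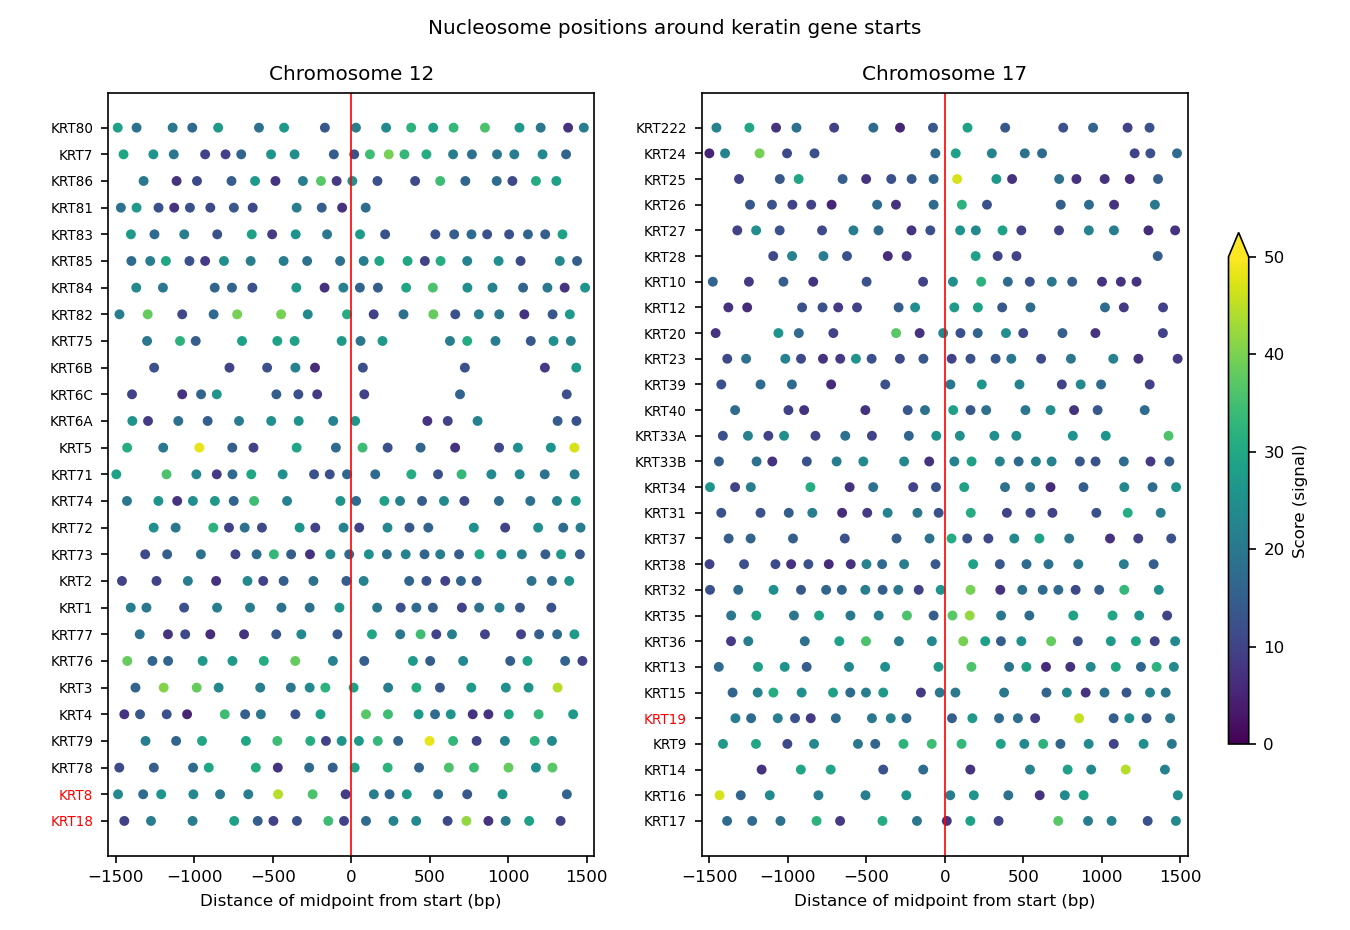
Each row is 1 keratin gene in cluster order, each point the midpoint of a nucleosome position by its distance from the start in bp (x axis), and colour its score, which is a signal without units and saturates at 50. The vertical red line is the start and red names mark KRT8, KRT18 and KRT19; most rows have a point close to the line, while KRT28 (440 bp) and KRT39 (415 bp) have the widest gaps and KRT81, KRT6B and KRT6C have long empty stretches.

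KRT8 is encoded on the minus strand of chromosome 12 (ENSG00000170421.13, 52897187 to 52949954), with its canonical start at 52905076. The 2 positions that flank this start had midpoints at -36 and 144 bp, which makes a gap of 180 bp, equal to the keratin median. The upstream one, chr12:52905042-52905181, covered the start and scored 8.64, the lowest of the 16 positions in the KRT8 window. The downstream one, chr12:52904862-52905001, scored 21.0, and its midpoint lay in the coding part of exon 1. The next 2 positions upstream, at -246 and -466 bp, were the highest of the window at 35.8 and 44.4. The other 12 scored between 13.6 and 27.1. KRT8 thus had a position over its start, but one well below the list median, between a strong position upstream and one of moderate score downstream. If only positions at or above the list median were kept, the gap at KRT8 became 390 bp, from -246 to 144 bp.

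KRT18 lies on the plus strand of chromosome 12 (ENSG00000111057.11, 52948871 to 52952906), and its start at 52949118 is 44042 bp from that of KRT8. Its flanking midpoints were at -46 and 94 bp, a gap of 140 bp. The position over the start, chr12:52949002-52949141, scored 9.87, and the first downstream one, chr12:52949142-52949281, with its midpoint in the coding part of exon 1, scored 17.3. A stronger position of 34.5 lay at -146 bp and overlapped the one over the start. The highest score of the window, 41.9, lay 734 bp into the gene. The 18 positions of KRT18 otherwise scored between 7.40 and 28.4. As at KRT8, the position over the start was weaker than the next one upstream.

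KRT19 lies on the minus strand of chromosome 17 (ENSG00000171345.13, 41523617 to 41528308), with its start at 41528308. Its flanking midpoints were at -244 and 46 bp. The gap of 290 bp was the widest of the 3 genes and the 6th widest of the 55, just under 300 bp, and no midpoint lay in the 200 bp upstream. The position over the start was therefore the first downstream one, chr17:41528192-41528331, with its midpoint in the 5′ UTR. It scored 14.8, the list median. The upstream neighbour, chr17:41528482-41528621, scored 17.3. The highest score, 45.7, lay 856 bp into the gene, and the other 16 of the 19 positions scored between 8.64 and 27.1.

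**Figure D2:**
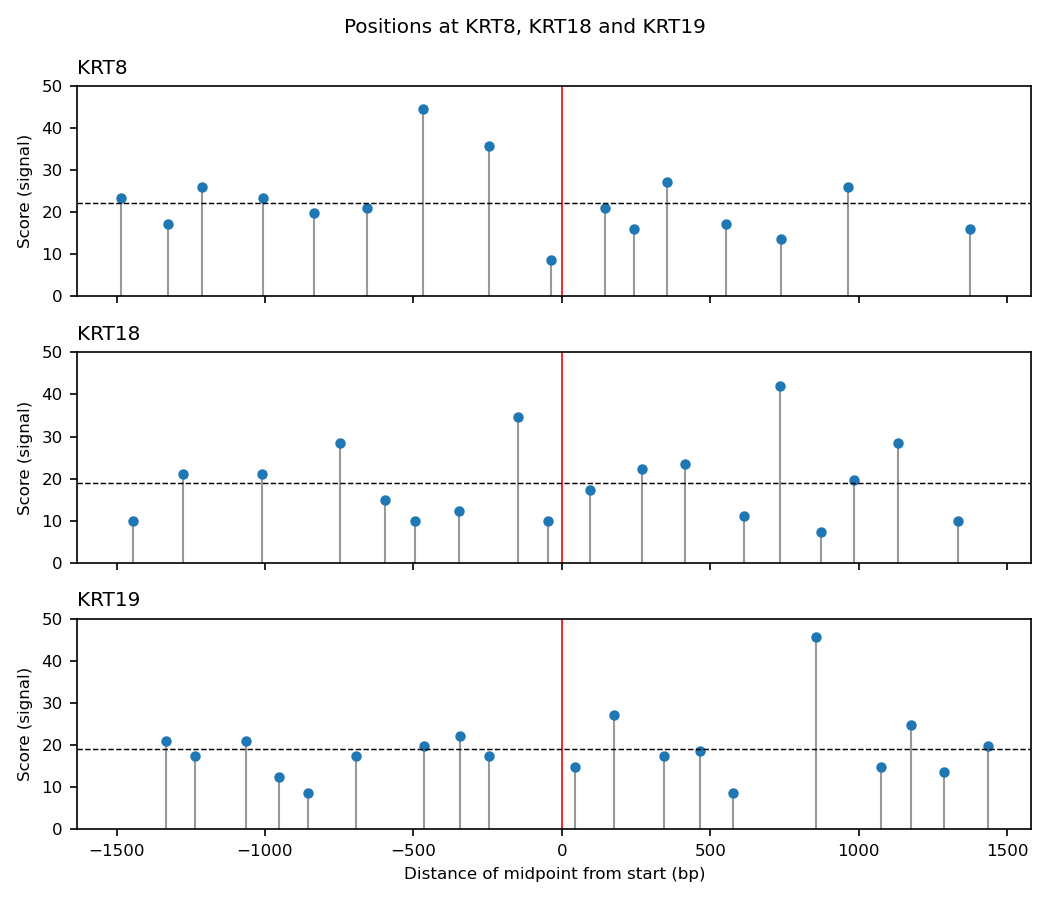
Each panel shows 1 gene, each point a nucleosome position at its distance from the start in bp (x axis) and its score, a signal without units (y axis). The red line is the start and the dashed line the gene's mean score within 1500 bp, 22.3 at KRT8, 19.1 at KRT18 and 19.0 at KRT19; the point nearest the start lies below the dashed line in all 3 panels.

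The 3 genes were next compared with the other 52. All 3 starts lay inside a position, as did 36 of the other 52. None of the 3 had a gap of at least 300 bp, against 5 of the other 52, and their median gap was the same, 180 bp. The first downstream position scored 21.0, 17.3 and 14.8 at KRT8, KRT18 and KRT19, with a median of 24.7 over the other 52 genes and 22.2 over all genes. It reached the upper quartile of the list at 63% of all genes, at 38 of the other 52 keratin genes and at KRT8 alone of the 3. Ranked from the highest among the 55 keratin genes, KRT8 was 32nd, KRT18 40th and KRT19 45th.

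The score of the position that covered the start was compared in the same way. It was below the list median at 42.9% of all covered starts, at 7 of the 36 covered starts among the other keratin genes, and at KRT8 and KRT18 but not at KRT19. The median score over the start was 22.8 in these 36 genes, 14.8 over all genes and 18.5 over the CpG-poor genes described below. Among the 39 covered keratin starts only those of KRT81 and KRT17, both at 7.40, scored lower than KRT8. KRT17, KRT81, KRT8 and KRT18 all have sequence copied elsewhere in the genome, and of the 12 covered starts in genes with more than 5% copied sequence 6 scored below the list median, against 3 of 27 in the other genes. The part of copied sequence in these low scores was not tested. This comparison was chosen after the values of KRT8, KRT18 and KRT19 were seen.

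Scores within 250 bp of the start were higher than scores in the rest of the window at 65.2% of all genes, at 35 of the other 52 keratin genes and at 2 of the 3. The mean difference was 0.029 ± 2.30 (SD, n = 3 genes) for KRT8, KRT18 and KRT19, 2.59 ± 6.09 (SD, n = 52 genes) for the other keratin genes and 4.09 ± 8.96 (SD over genes) for all genes. At KRT8 the positions near the start were lower, by 2.57. The values of the 3 genes lay within 1 SD of the mean of the other keratin genes. With GC-adjusted scores, described below, the mean difference was 0.321 for the other keratin genes and -0.935 for the 3.

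Over the whole window the 3 genes were not set apart. Their mean scores averaged 20.1 ± 1.87 (SD, n = 3 genes), against 19.1 ± 3.71 (SD, n = 52 genes) for the rest, and they had 5.89 ± 0.509 positions per kb against 5.35 ± 0.927. Both differences were smaller than the spread over the other genes, and that in score changed sign with GC adjustment. After each score was divided by the mean score of autosomal positions with the same GC content and returned to the autosomal mean, KRT8 stood at 17.3, KRT18 at 14.5 and KRT19 at 13.9, with a median of 16.2 over the other 52. KRT18 was then 45th and KRT19 52nd of the 55 genes, while KRT8 was 15th.

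The keratin genes next to them on the chromosome were read as local references. KRT78, the neighbour of KRT8, had midpoints at -118 and 22 bp, a first downstream score of 28.4 and a mean score of 24.4. KRT15 and KRT9, on either side of KRT19, had gaps of 100 and 190 bp. Their first downstream scores were 19.7 and 33.3 and their mean scores 19.8 and 23.8. KRT8 was thus lower than KRT78, and KRT19 lower than KRT15 and KRT9, both in first downstream score and in mean score.

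The sequence at the starts differed among the 3 genes. A start was called CpG-rich where the 1000 bp around it had a GC content of at least 55% and an observed-to-expected CpG ratio of at least 0.6. This held at 61.3% of all genes but at 4 of 55 keratin genes, namely KRT7, KRT18, KRT19 and KRT72. KRT19 had the highest CpG ratio, 0.75 with 79 CpGs, and KRT18 had 0.69 with 72 CpGs, while the median of the other 52 keratin genes was 0.264 and that of all genes 0.729. KRT8 had a GC content of 61.1% but 32 CpGs and a ratio of 0.34, so the start of its canonical transcript was not CpG-rich. The 4 CpG-rich keratin genes had a median gap of 135 bp, against 240 bp over the 11498 CpG-rich genes with a position on each side. KRT72, KRT7 and KRT18 had gaps of 100, 130 and 140 bp, while that of KRT19, 290 bp, was above 240 bp. The median first downstream score of the 4 was 13.6, against 23.4 over the CpG-rich genes. The 51 CpG-poor keratin genes had a median gap of 180 bp, against 210 bp over 7267 CpG-poor genes. The start was covered at 35 of these 51 and at 4454 of all 7505 CpG-poor genes. The median score over a covered start was 23.4 in the 35 and 18.5 in the 4454. It was below the list median at 7 of the 35 and at 1444 of the 4454.

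The keratin genes were then described by where they are known to be made. In the 5 keratins of simple epithelia, KRT7, KRT8, KRT18, KRT19 and KRT20, every start lay inside a position, against 51.6% of all genes. Their median first downstream score, 14.8, was the lowest of the groups. Single genes of other groups scored lower, such as KRT14 and KRT17 at 7.40. KRT7, a type II keratin of ducts and glands, had midpoints at -111 and 19 bp with scores of 14.8 and 12.3, and 20 positions in its window. KRT20, the type I keratin of intestinal epithelium, had a position of 23.4 at -10 bp and one of 12.3 at 100 bp. Both genes thus had gaps narrower than KRT8, 130 and 110 bp, and their first downstream scores were below those of all 3.

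The 22 keratins of stratified epithelia had the widest median gap of the 4 main groups, 194 bp, and a median first downstream score of 25.3. The start was covered at 13 of 22 genes, near the 51.6% of all genes. The basal pair differed at the start. KRT5 had midpoints at -98 and 72 bp with scores of 17.3 and 34.5, the latter in the 5′ UTR and higher than 97.9% of the scores on chromosome 12. KRT14, its type I partner, had midpoints at -137 and 163 bp with scores of 17.3 and 7.40, a gap of 300 bp, and 11 positions in its window. The start was left uncovered in both. That of KRT5, at 52520394, lay beside the end of its downstream position, 52520391, which is closer than the resolution of about 10 bp. The suprabasal pair had gaps of 240 bp at KRT1, with scores of 25.9 and 19.7 on either side, and 190 bp at KRT10, with 9.87 and 24.7. KRT3, of the corneal epithelium, had the highest mean score of all 55 genes, 26.9, and KRT79 the next, 26.1. The lowest were KRT6C at 13.3 and KRT6B at 13.7, both keratins of the KRT6 family.

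In the 9 keratins of the hair follicle sheaths the median gap was 150 bp and in the 17 of the hair shaft 170 bp, with median first downstream scores of 24.7 and 27.1. Starts were covered at 15 of 17 hair shaft genes and at 5 of 9 sheath genes, against 51.6% of all genes. The starts of KRT25 and KRT26 of the sheaths and KRT85 of the hair shaft, counted as uncovered, lay at the edge of a position. That of KRT25, at 40755331, lay beside a position that begins at 40755332, closer than the resolution of about 10 bp. Covered starts as near to an edge were not counted, so both counts are approximate. The highest first downstream score of any keratin was 46.9, at 79 bp in KRT25, a type I keratin of the inner root sheath, followed by 39.5 at KRT32 and KRT36 of the hair shaft. The widest gaps of all belonged to KRT28 of the inner root sheath, with midpoints at -243 and 197 bp, and to KRT39 of the hair shaft, with midpoints at -379 and 36 bp. KRT222 and KRT23, which were placed in no group, had gaps of 220 and 180 bp, and KRT23 had a first downstream score of 9.87. The narrowest gaps, 100 bp, were those of KRT86, KRT74, KRT72 and KRT15. This was also the smallest gap over all genes, and positions of 140 bp that lie this close overlap each other. KRT73 of the inner root sheath had the most positions in its window, 22, followed by KRT7, KRT85 and KRT32 with 20, and KRT6B had the fewest, 9, followed by KRT6C and KRT28 with 10. Of the 55 first downstream midpoints, 35 lay in coding sequence and 20 in the 5′ UTR. This split was not counted over all genes, so it cannot be read as particular to keratins.

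**Figure D3:**
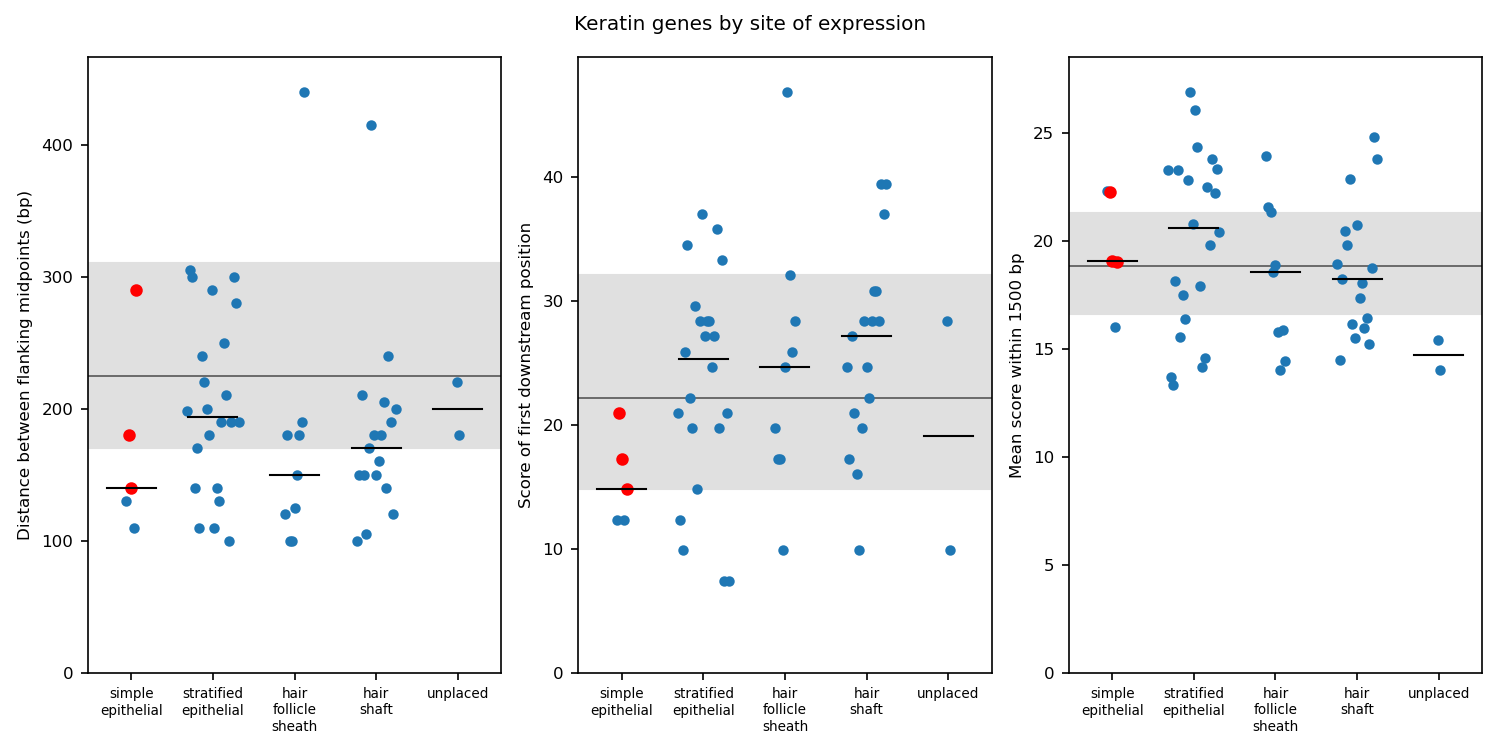
Points are keratin genes by group, with KRT8, KRT18 and KRT19 in red and short black bars at group medians; the y axes show the gap between flanking midpoints in bp, the score of the first downstream position and the mean score within 1500 bp (scores without units). The grey line and band are the median and quartiles over all genes, and the 5 simple epithelial genes all lie below the median of 22.2 for the first downstream score.

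Copied sequence in both clusters limits what can be read at some starts, since short reads from identical stretches have no unique place in the genome. The share of 50-base words in the 3-kb window that occur again anywhere in the genome was above 5% at 16 of the 55 keratin genes. It was 42.3% at KRT81, 33.0% at KRT6C, 29.7% at KRT6B, 18.1% at KRT16, 17.9% at KRT17, 15.2% at KRT6A and 14.8% at KRT14, and between 5.08% and 8.54% at KRT34, KRT39, KRT31, KRT222, KRT33B, KRT24 and KRT78. At KRT8 it was 9.04%, at KRT18 7.45% and at KRT19 4.71%. KRT8 and KRT18 have 51 and 68 annotated pseudogenes, most of them processed copies, and KRT19 has 5. Of the 5 genes with a gap of at least 300 bp, KRT6B, KRT6C, KRT14 and KRT39 were among these 16, and KRT28 had no such word. Across the 55 genes the share of copied words went with fewer positions per kb (Spearman's rho = -0.486), as a description over neighbouring genes that share 1 list. Near-copies that differ by a base were not counted, so the shares are lower bounds, and what the gaps of these 4 genes owe to unplaced reads was not tested. The shares were not counted over all genes, so 16 of 55 cannot be read as particular to keratins.

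Mean scores also followed base composition. Across the 55 keratin genes the mean score was higher where the GC content of the start was higher (rho = 0.645, n = 55 genes), with a rho of 0.349 over all genes, and after GC adjustment the relation in keratins was at 0.079. Between the gap and GC content rho was -0.088. The points share the pooled list and the 2 clusters, so no p-value is given.

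**Figure D4:**
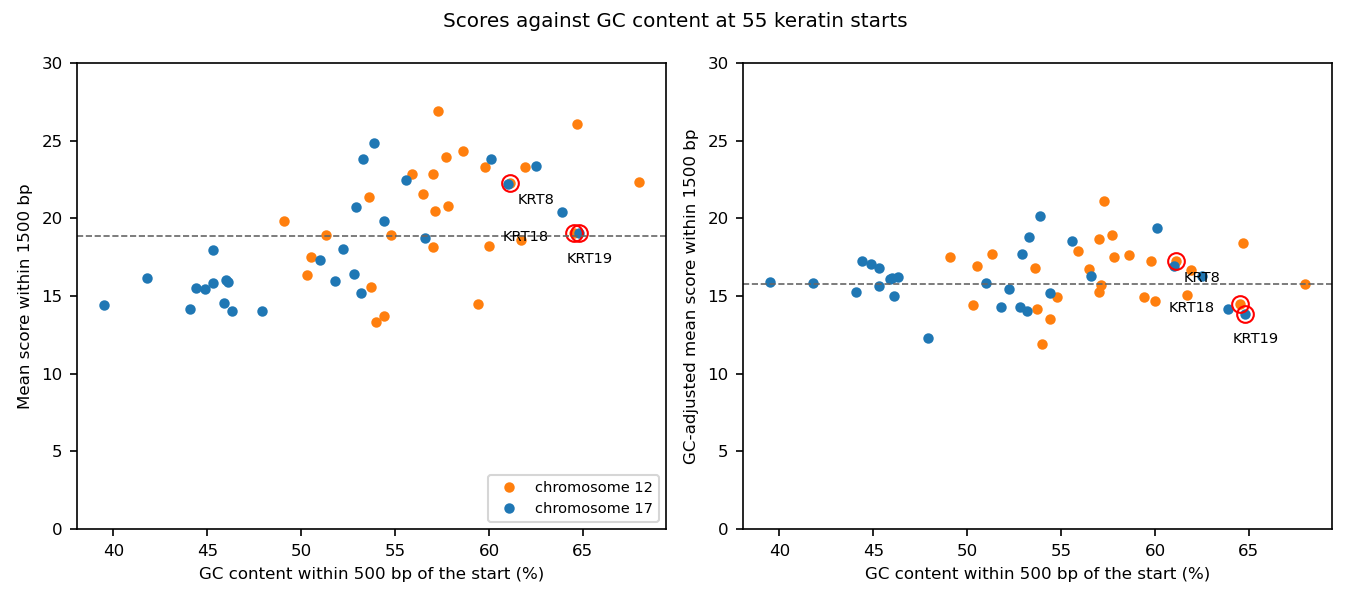
Each point is 1 keratin gene, with GC content within 500 bp of its start (x axis, %) against its mean score within 1500 bp (left) or the same after GC adjustment (right), both without units; dashed lines are medians over all genes and red rings mark KRT8, KRT18 and KRT19. Scores climb with GC content on the left and are level on the right, where KRT18 (14.5) and KRT19 (13.9) fall below the line and KRT8 (17.3) above it.

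Core promoter sequence was read from RefSeq (GRCh38.p14) for the 33 keratin genes whose entry begins at the canonical start. The TATA box binds the factor that places RNA polymerase II, and is common in tissue-specific genes. The letters TATAAA on the gene's own strand, starting between -40 and -20, were present in 16 of the 33 (48.5%), against 4.01% of 13683 promoters of all genes. The GC box (GGGCGG or CCGCCC, either strand, within 250 bp upstream) was present in 4 of 33 (12.1%), at KRT75, KRT37, KRT38 and KRT9, against 60.9%. A match is a description of the letters and not a site shown to be used. In 10 of the 16 keratin genes the TATAAA lay inside a called position, and over all genes in 299 of 549 (54.5%). The start was covered in 12 of the 16 genes with TATAAA and in 11 of the 17 without, with median gaps of 180 and 170 bp. Over all genes the start was covered in 60.7% of the 549 with TATAAA and in 50.3% of the 13134 without. KRT8, KRT18 and KRT19 were not among the 33, nor were KRT7 and KRT72, so all 4 CpG-rich keratin genes were missing. Of all genes 61.3% had a CpG-rich start. The shares with TATAAA or a GC box were not counted over CpG-poor genes alone. What CpG content contributes to both contrasts was therefore not tested.

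The 120 bases upstream of 6 starts are shown because they hold the range of arrangements, with TATAAA in capitals where it began between -40 and -20. They come from the minus strand of chr17:40799960-40800079 (KRT28), chr17:40966949-40967068 (KRT39), chr17:40822615-40822734 (KRT10), chr17:40755332-40755451 (KRT25), chr12:52796118-52796237 (KRT3) and chr12:52553146-52553265 (KRT71), read 5′ to 3′ towards the start.
KRT28: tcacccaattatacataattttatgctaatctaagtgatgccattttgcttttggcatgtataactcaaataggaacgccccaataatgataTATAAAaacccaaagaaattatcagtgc
KRT39: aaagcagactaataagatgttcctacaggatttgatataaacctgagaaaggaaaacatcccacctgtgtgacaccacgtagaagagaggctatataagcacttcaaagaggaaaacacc
KRT10: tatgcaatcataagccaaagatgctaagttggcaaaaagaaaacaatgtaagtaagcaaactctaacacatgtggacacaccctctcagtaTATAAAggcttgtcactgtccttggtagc
KRT25: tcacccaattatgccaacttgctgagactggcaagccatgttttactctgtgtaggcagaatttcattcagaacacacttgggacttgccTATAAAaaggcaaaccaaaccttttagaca
KRT3: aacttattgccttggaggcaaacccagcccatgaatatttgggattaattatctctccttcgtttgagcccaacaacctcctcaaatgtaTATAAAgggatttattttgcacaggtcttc
KRT71: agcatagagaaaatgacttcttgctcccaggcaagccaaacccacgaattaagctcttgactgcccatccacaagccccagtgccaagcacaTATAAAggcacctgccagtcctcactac

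In KRT28 the TATAAA began at -28 inside the widest gap of the set, 217.5 bp from the nearest midpoint. KRT39, with the next widest gap, had no TATAAA in the searched window. In KRT10 the letters began at -29 and lay outside any position, 78.5 bp from the nearest midpoint. In KRT25 and KRT3 they began at -30 and lay inside a position, 43.5 and 42.5 bp from its midpoint, and in KRT71 they began at -28 and lay 1.5 bp from the midpoint of a position that scored 16.0. The same 6 letters were therefore found at the centre of a called position, near its edge and far from any position.

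The clusters as a whole were then compared with their chromosomes. The type II cluster on chromosome 12 (52168996 to 52952906, 784 kb) held 4286 positions, or 5.47 per kb, with a mean score of 20.0. Chromosome 12 as a whole had 4.65 positions per kb and a mean score of 15.7. Over the 22 autosomes the density was 4.50 ± 0.221 per kb (SD, n = 22), between 3.72 and 4.80, and the mean score 16.0 ± 1.10. The density of the cluster was thus above the whole-chromosome value of each autosome. The type I cluster on chromosome 17 (40654665 to 41624842, 970 kb) held 4693 positions, or 4.84 per kb, also above the 4.80 of the densest autosome, with a mean score of 16.5, below the 17.8 of its chromosome. GC content was 49.1% in the first cluster and 42.8% in the second. After GC adjustment the mean scores were 16.8 and 15.8, against 15.7 ± 0.242 over the autosomes. The SD over autosomes is a spread of whole-chromosome values, and other regions as short as the clusters were not measured. Whether the clusters stand out among regions of their length was therefore not tested.

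Within the type I cluster 3 blocks differed. From KRT222 to KRT40 there were 4.94 positions per kb with a mean score of 15.5 at 40.1% GC. The KRTAP genes, which encode matrix proteins of the hair shaft, fill the next block, with 4.26 per kb and a mean of 14.3 at 40.2% GC. From KRT33A to KRT17, which includes KRT19, there were 5.41 per kb with a mean of 19.4 at 48.8% GC. At the starts the same order held, with a mean score of 15.5 as the median of 12 genes in the first block and 20.1 in the 16 genes of the last. After adjustment these medians were 16.0 and 16.1. The end of the type II cluster that holds KRT8 and KRT18, from the end of KRT78 on, had 5.63 positions per kb and a mean score of 20.3 at 50.3% GC, close to the cluster as a whole.

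**Figure D5:**
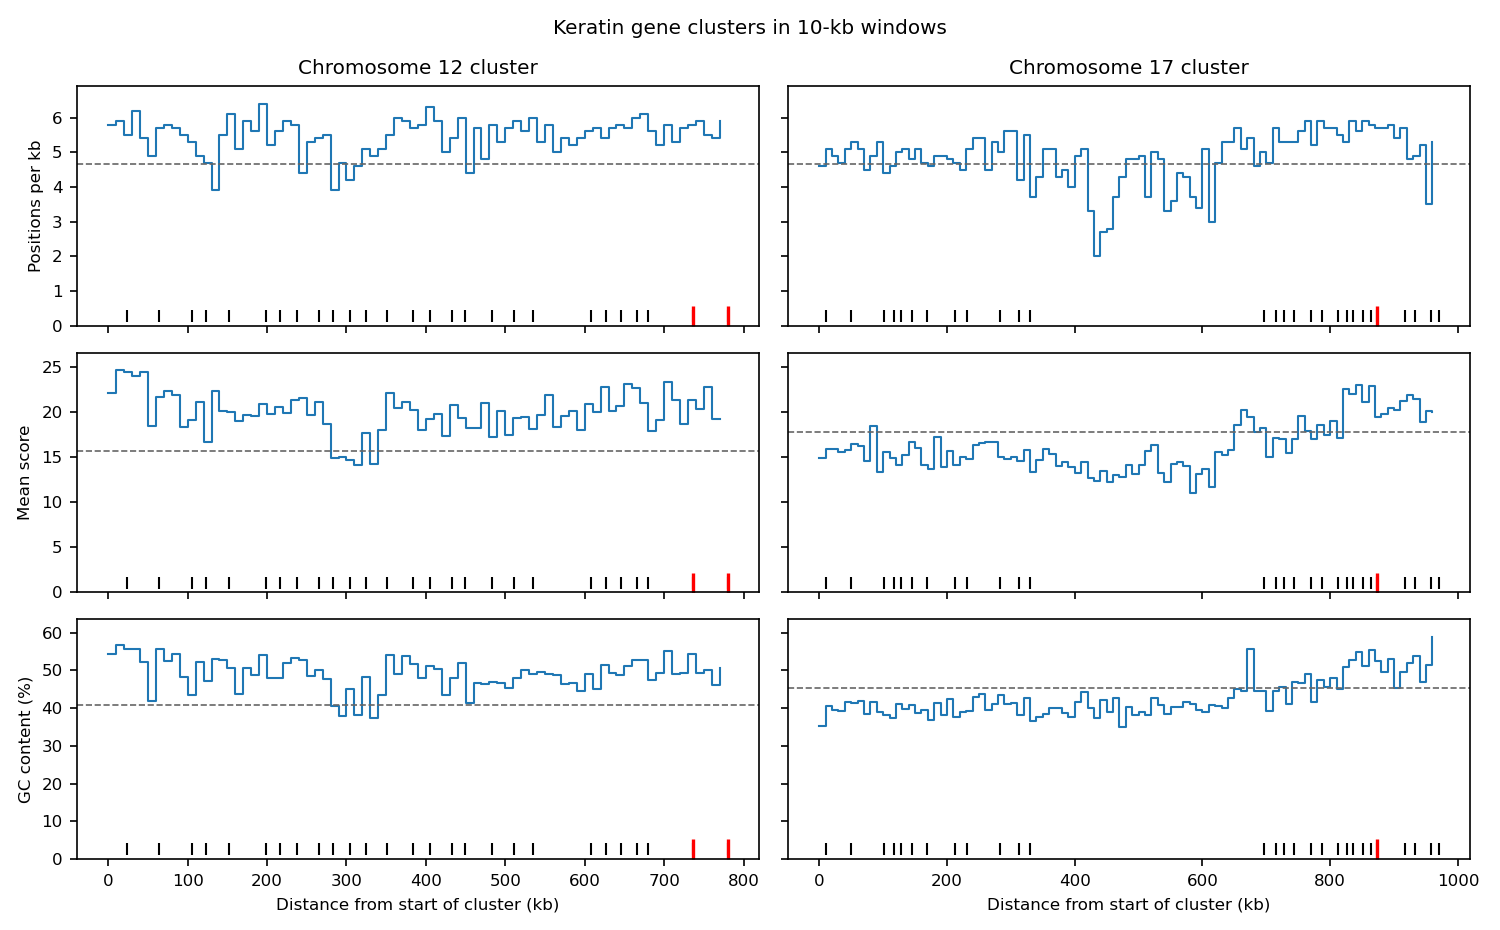
The 2 clusters are shown in windows of 10 kb along the distance from the start of each cluster in kb (x axes), with positions per kb, mean score (no units) and GC content in % (y axes). Dashed lines are the values of the whole chromosome and ticks the keratin starts, with KRT8, KRT18 and KRT19 in red; density is above the line along most of the type II cluster and falls in the KRTAP block of the type I cluster, and the score steps up together with GC content towards KRT17.

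The 3 longest stretches without a position in the clusters held mostly copied sequence. The longest gap between neighbouring midpoints in the type II cluster, 2690 bp, overlapped KRT81 and KRT86, and 90.7% of its 50-base words occurred elsewhere. The next, 2670 bp in KRT86, had 92.3%. In the type I cluster the longest was 3770 bp among the KRTAP genes, with 94.1%. Other long gaps were in sequence with few or no copies, among them gaps of 1760 bp (1.34%) and 1410 bp (no copied word) in the type I cluster outside keratin genes, and one of 900 bp inside KRT28 (no copied word). Gaps of at least 300 bp made up 6.49% of neighbouring pairs in the type II cluster, against 14.3% on chromosome 12. In the type I cluster the share was 12.7%, against 10.6% on chromosome 17. Over the autosomes it was 13.9 ± 2.34% (SD, n = 22).

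Along the canonical transcripts of the 55 genes, 636 midpoints lay in exons and 1770 in introns, which is 5.59 and 5.30 per kb. The mean score was 20.7 in exons and 19.1 in introns, and it was higher in exons in 42 genes. With GC-adjusted scores exons were higher in 22 of the 55. Exons and introns were not compared over all genes, so neither count can be read as particular to keratins. In KRT8, KRT18 and KRT19 the exons held 26 midpoints with a mean score of 19.3 and the introns 66 with 19.5. KRT81 had 3.63 midpoints per kb of exon and 1.35 per kb of intron, the gene with the largest share of copied sequence at its start.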

How the data were processed

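Nucleosome positions were analysed as deposited. The authors digested hiPSC chromatin with MNase, trimmed reads with Trimmomatic (version 0.40 in the submitters' processing notes), aligned them to GRCh38 and took out blacklisted regions. The nucMACC workflow was run under Nextflow, with positions called on pooled libraries. The deposited score is a signal with an unstated scale, and the step of the workflow that called positions and the number of reads pooled are not given in the sources used here. No position was filtered out. Starts, exons and biotypes came from GENCODE release 44, whereas the study used release 48. The start of a gene was that of its canonical transcript, and flanking positions were sought within 20 kb. GC content of a position was taken over 147 bp around its midpoint. Copied sequence was counted as exact words of 50 bases found more than 1 time in GRCh38, on either strand. Promoter letters came from RefSeq, where 34 members had an entry and 33 began at the canonical start. Python 3.11.15, NumPy 2.4.6, pandas 2.3.3, SciPy 1.17.1, numba 0.67.0 and matplotlib 3.10.9 were used. The gap, the first downstream distance and score and the count of positions were checked on simulated positions, and the other measures were not. Named genes were KRT8, KRT18 and KRT19 and their keratin neighbours, KRT7, KRT20, KRT23, KRT5, KRT14, KRT15, KRT1 and KRT10, the 3 highest and 3 lowest genes per measure, and genes with copied sequence. Genes named for CpG, GC box or TATAAA were chosen after their values were seen. Members, groups and lists were chosen with earlier results of these data known. With 1 pooled list, no tests were made.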

Additional observations from a re-analysis of the deposited data

How the results depend on the processing

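No paired analysis was possible because the pooled list has no value per sample, and no sample could be left out for the same reason. Of 43 alternatives to 14 results, 11 were chosen after the data were seen. In 25 the sign was kept and the value changed by less than the spread over genes or autosomes. For counts the limit was a change of less than 1.5 times. Another 12 changed by more, and 6 changed sign, though by less than the spread over genes. The count of KRT8, KRT18 and KRT19 with a gap of at least 300 bp went from 0 to 1 when weaker positions than the list median were dropped, where it was KRT8, and to 1 with a threshold of 250 bp, where it was KRT19. The count of other keratin genes went from 5 to 17 without those weaker positions, to 8 at 250 bp and to 2 at 350 bp. The difference in mean score between the 3 genes and the rest, 1.07, became -0.393 from the 5′-most start, -1.08 after GC adjustment, and -0.445 without genes with copied sequence, which leaves KRT19 of the 3. The score near the start minus that farther away in the 3 genes became -3.73 within 150 bp, -0.445 within 350 bp and -0.935 after GC adjustment. In the other keratin genes it went from 2.59 to 0.321 after GC adjustment, a change below their SD of 6.09. Without weaker positions the type II cluster had 4.01 and the type I cluster 2.73 positions per kb, and the type I cluster had 5.13 without the KRTAP span. Whole-chromosome densities without weaker positions are not given, so 4.01 and 2.73 cannot be set against the 4.50 over the autosomes. GC adjustment moved the mean score of the type II cluster to 16.8 and the count of genes with higher scores in exons from 42 to 22. The count of covered starts fell from 39 to 12 when a midpoint within 30 bp was required. The share of all genes under this stricter rule is not given, so the 12 cannot be set against 51.6%. The count of weak positions over a start went from 9 to 3 without genes with copied sequence. The cause of these shifts was not tested.

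The unknown depth and scale of the score, the 10-bp grid, the single cell line and the single pooled list limit all values. A position of low score over a start cannot be told apart from one present in part of the cells or in part of the digestions. For 14 of the 55 genes another annotated start lies farther 5′. For KRT8 it lies within KRT18, at 52949954, so the windows of KRT8 and KRT18 around their 5′-most starts overlap.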

Other observations

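Gene groups related to keratins were read in the same way, beside 28% of all genes with a gap of at least 300 bp and 51.6% with a covered start. The 12 genes of other intermediate filaments had a median gap of 185 bp, with 3 gaps of at least 300 bp and 6 starts inside a position, close to those shares. The 14 genes of epithelial junctions, which anchor keratin filaments at desmosomes or join cells at adherens and tight junctions, had a median gap of 210 bp, with 1 such gap and 7 covered starts, the latter close to the share of all genes, and a median first downstream score of 30.2. The 10 genes of the cornified envelope, the cross-linked shell of dead epidermal cells, had a median gap of 185 bp, with 1 such gap and 5 covered starts. Their mean scores had medians of 20.8, 19.9 and 18.5.

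The 34 KRTAP genes on chromosome 17 lie between 2 blocks of keratin genes. Their median gap was 237.5 bp, 13 of the 34 had a gap of at least 300 bp, against 28% of all genes, and their windows held a median of 13 positions with a mean score of 13.4. Of the 50-base words over the whole type I cluster 6.41% occurred elsewhere in the genome, against 4.24% over the type II cluster, and what this contributes to the values of the KRTAP genes was not tested.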
